A study of Mus musculus with 8 samples.

Results

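The genes described here encode chromatin remodellers and the enzymes and readers of DNA methylation. They were chosen by name, as the protein-coding genes whose symbols belong to the Chd, Smarc, Arid, Ino80, Baz, Brd, Dnmt, Tet, Mbd, Phf and Uhrf series or are Bptf, Hells, Atrx or Ep400, and 73 of the 9140 genes in the deposited matrix met this rule. The rule reads names and no measured value. The rule takes names and not functions, so a few of its genes are relatives by name alone, such as Uhrf1bp1 and Uhrf1bp1l. Of the 73 genes, 60 reached a mean of 0.1 normalised counts per cell in all 8 libraries, 11 in some of them, and Dnmt3b and Phf21b in none. A normalised count is the number of captured RNA molecules of a gene in a cell after every cell is scaled to the same total of 8707.1. The method tags 1 end of each molecule, so a count does not grow with the length of the gene.

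Chromatin remodellers use ATP to slide, evict or exchange nucleosomes. SWI/SNF complexes (BAF and PBAF) open chromatin around either Smarca4 (BRG1) or Smarca2 (BRM), the ISWI enzymes Smarca5 and Smarca1 space nucleosomes together with Baz and Bptf subunits, and the CHD and INO80 families have further roles in transcription and repair. Dnmt1 copies CpG methylation onto newly made DNA, with Hells (LSH) as a remodeller that helps methylation reach packed chromatin. Dnmt3a sets new methylation, Tet enzymes oxidise it and some MBD proteins bind it. In neural development the BAF complex is known to exchange subunits as progenitors leave the cell cycle.

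Neural progenitor cells from the hippocampus of mouse embryos were grown in culture with EGF and FGF2 and profiled by 10x Chromium single-cell RNA sequencing of the 3′ end. Libraries come from cultures still in growth factor, called day 0, and from days 2, 4 and 8 without it, when the cells differentiate. There were 2 genotype labels and 1 library for each label and day. One group is labelled Kmt2d+/βgeo with the allele Mll2Gt(RRt024)Byg, a gene trap in 1 copy of Kmt2d, a histone H3 lysine methyltransferase gene. The other carries the strain label C57BL/6J, is the littermate group in the growth protocol, and is called wild type here. The labels place dissection of the dentate gyrus at embryonic day 18 from C57BL/6J females mated to Kmt2d+/βgeo males, whereas the study's methods give hippocampus taken a day earlier. All cells had passed through growth in culture, and the sources used here do not give how many embryos fed each culture.

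The libraries held 2534 to 4900 cells, 30408 in all, with median totals of 7926 to 23219 unique molecular identifiers (UMIs, each 1 captured molecule) per cell. The following features of the libraries bear on what follows. The shallowest was Kmt2d+/βgeo day 8, with a median of 3972 UMIs on matrix genes against 6989 in wild type day 8, and 809 of its cells lay under 3000 such UMIs. The 2 day 4 libraries were nearly the same, with 0 of 7459 genes 2-fold apart and an SD of 0.11 among log2 ratios. Whether both carry the right label is therefore in doubt, and the likeness does not say which, if either, is wrong. Kmt2d itself was at 0.193, 0.171, 0.295 and 0.290 normalised counts on days 0, 2, 4 and 8 in the libraries labelled Kmt2d+/βgeo and at 0.157, 0.197, 0.237 and 0.241 in those labelled wild type. It was lower under the Kmt2d+/βgeo label on day 2 only, and tags at the 3′ end need not show a trapped copy, so genotype is given here as a label. Any pair of libraries shared 0 to 10 cell barcodes. Of the progenitor markers 9 of 14 were in the matrix, and they summed to 107 to 219 normalised counts per cell, above the 8.60 to 19.3 of the 11 of 27 neuron markers in every library. The astrocyte markers (6 of 10) summed to 16.7 and 8.42 on day 0 and to 107 to 254 from day 2. Markers of the oligodendrocyte lineage (1 of 8) summed to 0.911 to 8.09, and none of 10 markers of microglia, endothelial cells and fibroblasts was in the matrix.

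With 1 library per group the spread between cultures could not be measured, and no test was run. A log2 ratio of mean normalised counts was taken for every gene with a mean of at least 0.1 in either library, and a gene was called when it differed by at least 2-fold. A gene under 0.1 in 1 library of a pair, such as Hells after day 0, Smarca1 on day 0 under the Kmt2d+/βgeo label or Bicra on day 0, was compared through its higher library only. For changes over time the words rose and fell are kept for genes that passed 2-fold in the same direction under both labels. Intervals are exact 95% limits from the summed UMIs and cover counting error only. They belong to ratios of summed UMIs. The ratio of mean normalised counts, which was used for calls, can lie outside them, as it did for Hells. All ratios are relative to the molecules captured per cell from the 9140 matrix genes. In such data fewer molecules per cell and fewer cells that make them cannot be told apart from a mean alone.

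After growth factor withdrawal more members passed 2-fold downward than upward. By day 8, 9 of 69 compared members had fallen under both labels (13.0%, against 8.02% of all compared genes) and 0 had risen, against 13.2% of all genes. The genes that fell were Hells, Dnmt1, Baz1a, Smarcc1, Chd1, Tet3, Bptf, Smarcd1 and Smarce1. By day 2, 5 of 68 had fallen (Hells, Dnmt1, Baz1a, Chd1 and Smarca4, background 4.44%) and 2 had risen (Smarca1 and Arid5b, background 6.52%). By day 4, 3 of 68 had fallen (Hells, Dnmt1 and Baz1a, background 4.67%) and 1 had risen (Smarca1, background 10.2%). The day 4 libraries were nearly the same, so calls under both labels on that day may not come from separate cultures. The shares of members that fell were 7.35%, 4.41% and 13.0% on days 2, 4 and 8, a few genes from the background, and by the difference of mean log2 values the counts were 0, 0 and 1, the last against 1.33% of all genes. The share that rose was below the background on all 3 days. The median log2 ratio of members from day 0 to day 8 was -0.33 under the Kmt2d+/βgeo label and -0.47 under the wild type label, where the medians of all genes were 0.11 and 0.04. The median of all genes also stood at 0.17 on day 4 under the Kmt2d+/βgeo label. Without the shallow Kmt2d+/βgeo day 8 library, the wild type label alone had 14 of 69 members at least 2-fold lower (background 10.9%) and 1 at least 2-fold higher (background 16.3%). Under the Kmt2d+/βgeo label 14 of 70 were lower (background 13.9%) and 1 was higher (background 19.0%).

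**Figure D1:**
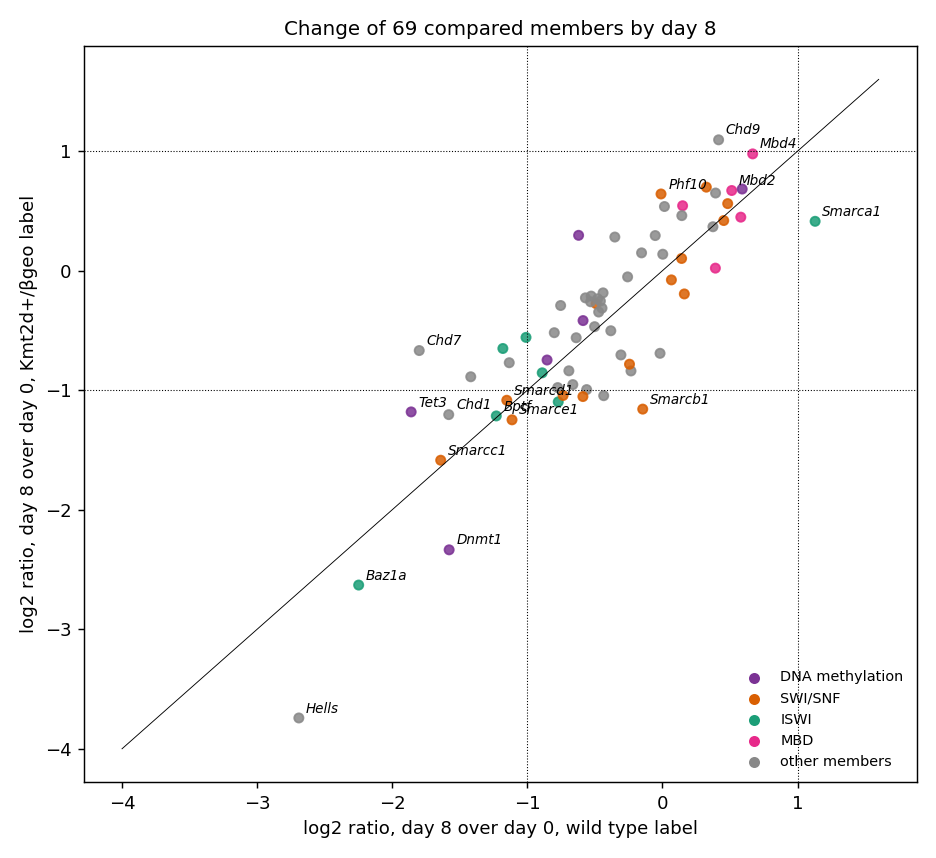
Log2 ratio of day 8 over day 0 for the 69 members compared under both labels, with the wild type label on the horizontal and the Kmt2d+/βgeo label on the vertical axis. Each point is 1 gene, colours mark role groups, dotted lines mark 2-fold and the diagonal marks equal change. The 9 members that fell lie in the lower left, led by Hells at -3.74 and -2.69, and no member lies past 2-fold in the upper right.

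Hells had the largest fall of any compared member on days 2, 4 and 8 under both labels. It was at 0.491 normalised counts per cell on day 0 under the Kmt2d+/βgeo label and then at 0.0179, 0.0547 and 0.0367 on days 2, 4 and 8. Under the wild type label it was at 0.283, 0.0198, 0.0380 and 0.0438. Both day 0 libraries were far above the other 6, which did not overlap with them. The fall was largest on day 2, 27.4-fold and 14.3-fold, and by day 8 it was 13.4-fold under the Kmt2d+/βgeo label and 6.46-fold under the wild type label. From summed UMIs the day 8 log2 ratios were -3.75 (95% counting interval -4.16 to -3.37, 56 UMIs on day 8) and -3.03 (-3.32 to -2.76, 113 UMIs). Dnmt1, the maintenance methyltransferase, was at 0.957, 0.148, 0.275 and 0.190 on the 4 days under the Kmt2d+/βgeo label and at 0.752, 0.147, 0.266 and 0.252 under the wild type label. Its lowest library was thus also a day 2 library, followed by a partial return on day 4, and its log2 ratios by day 8 were -2.34 and -1.58. The lists of S phase and G2/M genes moved with both genes. The S phase list (18 of 38 genes in the matrix) summed to 12.9 and 10.4 on day 0 and to 3.05 to 4.51 on later days, and the G2/M list (15 of 50) to 17.3 and 15.6 on day 0 and to 4.70 to 7.25 later. Uhrf1, the partner that brings Dnmt1 to newly made DNA, was not analysed here.

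The upstream sequences of these genes are shown because E2F factors are known to act on genes of S phase. Smarca1, which rose by days 2 and 4, is shown beside them. The windows reach from 250 bases before to 50 bases after an annotated start in RefSeq on GRCm38.p6. The set of windows held no entry for some members, and windows on 1 chromosome were left out. A member without a window need not lack an annotated start. Of the 73 members, 56 matched at least 1 window. Each was searched on both strands for the E2F-type motifs TTTCCCGC, TTTCGCGC, TTTGCCGC and TTTGGCGC, which are marked in capitals. The 250 bases before the start are printed for Hells (chr19:38930740-38930989, plus strand) and Smarca1 (chrX:47892614-47892863, minus strand). For Dnmt1 the 30 bases around the upstream match are printed (chr9:20952824-20952853, minus strand), which belong to 1 of its 3 listed starts.
Hells: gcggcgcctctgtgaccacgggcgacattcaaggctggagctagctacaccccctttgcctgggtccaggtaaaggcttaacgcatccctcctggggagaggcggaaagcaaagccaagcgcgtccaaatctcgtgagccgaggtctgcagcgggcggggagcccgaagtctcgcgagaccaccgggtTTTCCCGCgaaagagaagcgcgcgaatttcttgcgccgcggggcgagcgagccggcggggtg
Dnmt1: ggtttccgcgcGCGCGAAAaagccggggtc
Smarca1: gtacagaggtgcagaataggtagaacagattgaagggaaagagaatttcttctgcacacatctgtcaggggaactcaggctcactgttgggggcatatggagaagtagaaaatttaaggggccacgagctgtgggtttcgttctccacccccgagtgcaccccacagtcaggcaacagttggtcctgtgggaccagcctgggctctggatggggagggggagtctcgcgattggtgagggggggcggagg
The Hells motif begins 62 bases before the start, the printed Dnmt1 motif, read on the opposite strand, 219 bases before it, and a second Dnmt1 motif, TTTGGCGC, lies at base 34 after the start and is not printed. Smarca1 has none in its window, as is the case for most matrix genes. Motifs were found for 6 of the 56 members (10.7%), namely Arid1a, Brd7, Dnmt1, Hells, Phf19 and Smarcd1. Of the 7250 matrix genes with a window 355 held one (4.90%), and of all windows searched 2.26% did. Among the 9 members that fell by day 8, 6 had a window and 3 of these held a motif (Dnmt1, Hells and Smarcd1), while Bptf, Smarcc1 and Tet3 held none. Baz1a, Chd1 and Smarce1 had no window. A match describes the sequence and is no evidence of binding.

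The enzymes that set and remove methylation went separate ways. Tet3, an oxidase of methylcytosine, fell, from 0.659 on day 0 to 0.497, 0.526 and 0.291 under the Kmt2d+/βgeo label and from 0.896 to 0.503, 0.449 and 0.247 under the wild type label. Tet2 had its lowest library on day 0 under each label, at 0.173 and 0.132, and stood at 0.278 and 0.199 on day 8, a log2 ratio of 0.68 and 0.59 that stayed under 2-fold. Tet1 was lower on day 8 than on day 0 without reaching 2-fold (-0.75 and -0.85). The 3 Tet genes therefore did not move together. Dnmt3a, the de novo methyltransferase of neural cells, stood at 0.406, 0.585, 0.612 and 0.498 under the Kmt2d+/βgeo label and at 0.587, 0.621, 0.566 and 0.381 under the wild type label, so the order of its days differed between labels. Uhrf2, a relative of Uhrf1 that binds hydroxymethylated DNA, was between 0.360 and 0.607 in all libraries. Dnmt3b was between 0.0224 and 0.0466 and was not compared.

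**Figure D2:**
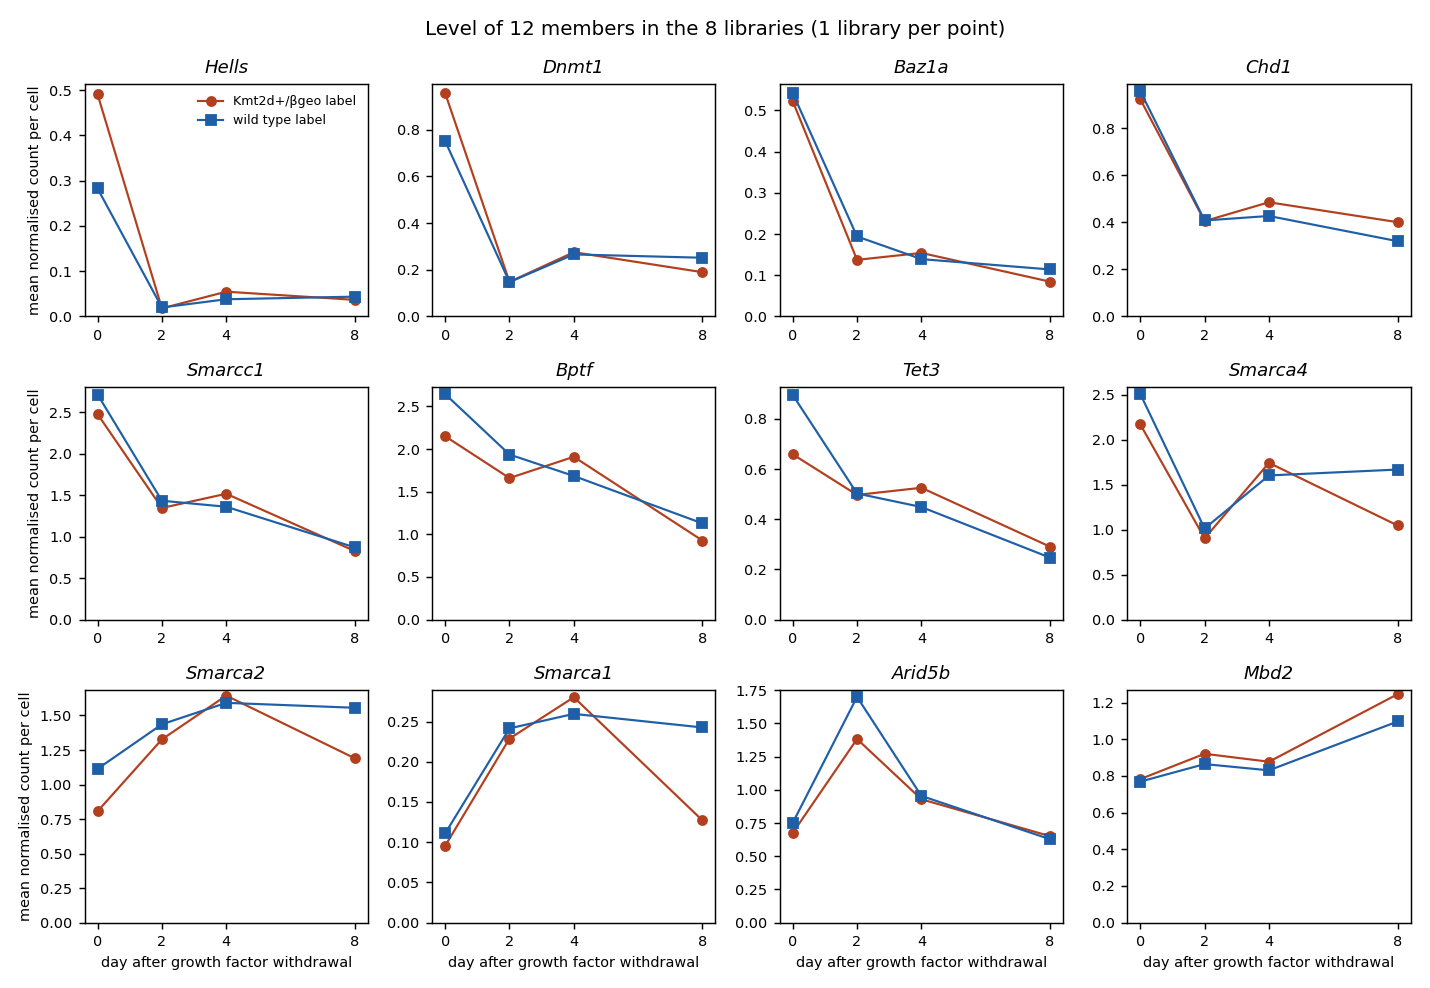
Mean normalised count per cell of 12 members on days 0, 2, 4 and 8 after growth factor withdrawal, 1 panel per gene with its own vertical axis from 0. Each point is 1 library (circles, Kmt2d+/βgeo label, and squares, wild type label), so there are no error bars. Hells, Dnmt1, Baz1a and Chd1 drop by day 2, Smarcc1, Bptf and Tet3 are lowest on day 8, and Smarca1 and Smarca2 are lowest on day 0.

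Of the genes named Mbd, not all of which need bind methylated DNA, Mbd1 and Mbd2 reached 0.1 in all 8 libraries. Both were higher on day 8 than on day 0 by less than 2-fold, with log2 ratios of 0.45 and 0.58 for Mbd1 and 0.67 and 0.51 for Mbd2. Mbd4, Mbd5 and Mbd6 were under 0.1 on day 0 in at least 1 library and were compared there through the higher day 8 level, so their sign is not counted. Mbd2, a reader linked to the NuRD complex, was at 0.783, 0.921, 0.878 and 1.25 under the Kmt2d+/βgeo label and at 0.769, 0.865, 0.831 and 1.10 under the wild type label. Its day 8 libraries were the highest of the 8, and the summed UMIs gave log2 ratios of 0.64 (0.56 to 0.72) and 0.48 (0.42 to 0.55). Mbd4, a glycosylase that removes deaminated methylcytosine, was at 0.0757 and 0.0737 on day 0 and at 0.149 and 0.117 on day 8. Among the partner genes, Zbtb4, which binds methylated DNA through zinc fingers, rose, from 0.0779 to 0.234 under the Kmt2d+/βgeo label and from 0.107 to 0.285 under the wild type label. Tdg, the glycosylase that removes the products of Tet enzymes, fell, from 0.882 to 0.436 and from 0.984 to 0.300.

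Within SWI/SNF, members of a pair that fill the same place in the complex changed differently. Smarca2, the BRM ATPase, was at 0.806, 1.33, 1.64 and 1.19 on the 4 days under the Kmt2d+/βgeo label and at 1.11, 1.44, 1.59 and 1.56 under the wild type label. Smarca4, the BRG1 ATPase, was at 2.17, 0.903, 1.74 and 1.05 under the Kmt2d+/βgeo label and at 2.51, 1.01, 1.6 and 1.67 under the wild type label. On day 0 Smarca4 stood above Smarca2 under both labels, and on day 2 the order was reversed under both. The reversal did not last, since Smarca4 was again slightly above Smarca2 on day 4 under both labels. On day 8 it was above under the wild type label and below under the Kmt2d+/βgeo label. Smarca4 fell by day 2 (-1.26 and -1.31), was higher again on day 4, and on day 8 the labels parted, with log2 ratios to day 0 of -1.05 and -0.59. Smarca2 was above its day 0 level on each later day but reached 2-fold only on day 4 under the Kmt2d+/βgeo label (1.03). The core scaffold Smarcc1 fell from 2.48 to 1.35, 1.52 and 0.826 under the Kmt2d+/βgeo label and from 2.72 to 1.43, 1.36 and 0.870 under the wild type label. Its log2 ratios from summed UMIs by day 8 were -1.65 (-1.74 to -1.56) and -1.70 (-1.77 to -1.64). Its paralog Smarcc2 was at 0.435 and 0.460 on day 0 and 0.467 and 0.507 on day 8, within 0.14 on the log2 scale.

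Further core subunits were low on day 8 as Smarcc1 was. Neither Smarcc1 nor these had passed 2-fold on day 2 under both labels. On that day Smarce1 had log2 ratios of -0.36 and -0.33 and Smarcd1 of -0.95 and -0.14. Smarce1, the HMG-box subunit, fell from 1.45 and 1.42 on day 0 to 0.612 and 0.658 on day 8, and Smarcd1 from 1.5 and 1.58 to 0.706 and 0.713. On day 2 Smarcd1 differed between labels, at 0.775 against 1.44. Smarcd3, the paralog of Smarcd1, was at 0.587 and 0.638 on day 0 and at 0.341 and 0.539 on day 8, under 2-fold in each label. Of the ARID subunits that set the form of the complex, Arid1a was between 0.705 and 1.05 in all libraries, Arid1b between 0.284 and 0.443, and Arid2, of PBAF, highest in the day 8 library of each label at 1.05 and 0.846. The 15 SWI/SNF members as a whole had 6 lower by 2-fold on day 8 under the Kmt2d+/βgeo label (background 13.9%) and 3 under the wild type label (background 10.9%). Their medians were -0.28 and -0.15, where all genes had 0.11 and 0.04.

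Several of the subunits that distinguish progenitor from neuronal BAF were followed where the matrix held them. Actl6a (BAF53a), the actin-like subunit of progenitors, fell from 0.988 to 0.630, 0.591 and 0.367 under the Kmt2d+/βgeo label and from 0.918 to 0.553, 0.589 and 0.435 under the wild type label. Of the progenitor subunit genes, Ss18 was at 0.508 and 0.486 on day 0 and at 0.391 and 0.362 on day 8, and Phf10 (BAF45a) at 0.586 and 0.594 on day 0 and at 0.914 and 0.590 on day 8. Phf10 thus did not fall under either label. Dpf3, a subunit of the neuronal form, fell, from 0.142 to 0.0226 and from 0.202 to 0.0471, while Dpf1, another neuronal subunit gene, did not pass 2-fold, at 0.271 and 0.228 on day 0 and 0.209 and 0.201 on day 8. Ss18l1 (CREST) lay between 0.0534 and 0.0877, under the minimum of 0.1 in all libraries, and was not compared. Actl6b and Bcl11b were not analysed here. The levels above are means of whole libraries, and a switch of subunits within cells was not tested. Within day 8, Actl6a was higher in the cells highest in the neuron list than in the rest. It was at 0.554 against 0.357 under the Kmt2d+/βgeo label (24 UMIs) and at 0.726 against 0.420 under the wild type label. Ss18 (0.522 against 0.384 and 0.704 against 0.344) and Dpf1 (0.391 against 0.200 and 0.337 against 0.194) were higher there as well. Bicra, the GLTSCR1 subunit of the noncanonical BAF complex, rose from 0.0560 to 0.168 and from 0.0524 to 0.129. In all, of 41 partner genes in the matrix 38 were compared on day 8 and 4 fell (Actl6a, Dpf3, Hdac2 and Tdg) and 2 rose (Bicra and Zbtb4), against the backgrounds of 8.02% and 13.2%. Hdac2, the deacetylase of NuRD and Sin3 complexes, fell from 1.54 to 0.496 and from 1.66 to 0.559.

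The ISWI genes changed in both directions. Baz1a (ACF1), the partner of Smarca5 in the ACF and CHRAC complexes, was at 0.523, 0.137, 0.154 and 0.0844 on the 4 days under the Kmt2d+/βgeo label and at 0.542, 0.194, 0.139 and 0.114 under the wild type label. All later libraries were below both day 0 libraries, and the fall by day 8 was 6.19-fold and 4.75-fold. From summed UMIs the log2 ratios were -2.58 (-2.86 to -2.32) and -2.26 (-2.44 to -2.09). Smarca5 (SNF2H), the main ISWI ATPase of dividing cells, was at 3.60, 2.13, 2.83 and 1.99 and at 3.84, 2.36, 2.72 and 2.07, lower on each later day but short of 2-fold. Smarca1 (SNF2L), the ATPase linked to differentiated neurons, was at 0.0954, 0.229, 0.280 and 0.127 under the Kmt2d+/βgeo label and at 0.111, 0.241, 0.259 and 0.243 under the wild type label. It rose by day 2, with log2 ratios from summed UMIs of 1.35 (1.19 to 1.5) and 1.2 (1.05 to 1.35), and by day 4, while on day 8 the shallow Kmt2d+/βgeo library had returned towards day 0 (0.41) and the wild type library had not (1.13). Bptf, the large NURF subunit that pairs with Smarca1 and reads methylated histone H3, fell by day 8 (2.15 to 0.926 and 2.65 to 1.13), so the 2 NURF genes did not move together. Baz1b, Baz2a and Baz2b were lower on day 8 than on day 0 under both labels, at -0.56 to -1.18, each past 2-fold under 1 label.

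Among the CHD genes, Chd1, which is tied to active transcription and an open genome in stem cells, fell from 0.923 to 0.405, 0.485 and 0.401 under the Kmt2d+/βgeo label and from 0.958 to 0.408, 0.427 and 0.320 under the wild type label. Its day 4 ratio under the Kmt2d+/βgeo label was -0.93, just short of 2-fold. Chd4, the NuRD ATPase, was at 3.32 and 3.49 on day 0 and 1.86 and 2.16 on day 8 (-0.84 and -0.69). Chd3 and Chd5, which take the place of Chd4 in neurons, and the NuRD gene Mbd3 were not analysed here. Chd7, the gene of CHARGE syndrome and a regulator of neural stem cells, was at 1.22, 1.73, 1.70 and 0.768 under the Kmt2d+/βgeo label and at 2.17, 2.23, 1.49 and 0.624 under the wild type label. Both day 8 libraries were its lowest, but the ratio to day 0 passed 2-fold only under the wild type label (-1.80 against -0.67), where day 0 was higher. Chd8, an autism-linked gene, was between 0.616 and 0.799 up to day 4 and at 0.388 and 0.626 on day 8. Chd9 was higher on day 8, at 0.252 and 0.311 on day 0 and 0.538 and 0.414 on day 8, 2-fold higher under the Kmt2d+/βgeo label alone.

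Of the remaining members few changed by 2-fold. Atrx, which deposits histone H3.3 with Daxx, was between 2.25 and 3.47 in all libraries. The 5 genes of the INO80 and EP400 group had medians of -0.50 and -0.44 on day 8, and the 11 compared PHD finger genes -0.31 and -0.47. Arid5b, a DNA-binding ARID protein that works with the demethylase Phf2, was highest on day 2, at 0.675, 1.38, 0.929 and 0.651 under the Kmt2d+/βgeo label and 0.751, 1.70, 0.954 and 0.628 under the wild type label. Phf21b was between 0.0207 and 0.0631 and was not compared, and Phf19, a Polycomb accessory gene, was near the minimum, with 0.115 on day 2 under the Kmt2d+/βgeo label as its only library above 0.1.

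To see which members varied with the cell cycle before differentiation, the cells of each day 0 library were ranked by their summed S phase list and the top 25% and bottom 25% compared (1083 cells each under the Kmt2d+/βgeo label, 1214 under the wild type label). Cells of 1 library share their culture, so the figures describe these 2 libraries. At least 1.5-fold higher levels in S-high cells of both libraries were found for 8 of 69 members, against 8.06% of all genes, and at least 1.5-fold lower levels for 1 (Smarca1), against 5.67%. Hells was at 1.45 in the top and 0.0406 in the bottom 25% under the Kmt2d+/βgeo label and at 0.909 and 0.0351 under the wild type label. Dnmt1 was at 2.26 against 0.284 and at 1.94 against 0.241. These 2 genes stood far above the rest, with log2 ratios of 5.16 and 4.70 for Hells and 3.0 and 3.01 for Dnmt1. The others were Mbd4 (2.12 and 1.56), Baz1b (1.51 and 1.21), Brd8 (0.82 and 1.09), Phf6, Phf5a and Chd1l. The share of members was 11.6% and not far from the background, so the pattern lies in these few genes and not in the list. These 2 classes also differed in depth, with medians of 14773 against 9678 and 13331 against 8151 UMIs on matrix genes, and with every cell thinned to 3000 UMIs the count was again 8, of which 7 were shared, with Uhrf2 in place of Chd1l. With the top and bottom 10% of cells it was 12 (background 10.1%), Baz1a among them.

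Ranking by the G2/M list gave 7 of 69 members at least 1.5-fold higher in both libraries (background 7.93%) and 0 lower (background 4.86%). Mbd4 again passed the minimum of 0.1 through its high class only. With a minimum of 0.5 the count of higher members was 5 (background 8.68%), without Hells and Mbd4. Dnmt1 (2.23 and 2.60), Hells (2.01 and 2.94), Brd8 (1.62 and 1.51), Mbd4 (1.49 and 1.25) and Baz1b (1.06 and 0.97) led, Brd8, a bromodomain subunit of the TIP60 and EP400 complex, had larger ratios for G2/M than for S phase, and Hells the reverse. Baz1a had smaller ratios than Hells and Dnmt1, 0.55 and 0.25 for S phase and -0.16 and -0.12 for G2/M, and day 8 log2 ratios of -2.63 and -2.25. Tet3 was lower in S-high cells (-0.41 and -0.35), and Smarcc1 somewhat higher (0.60 and 0.41).

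**Figure D3:**
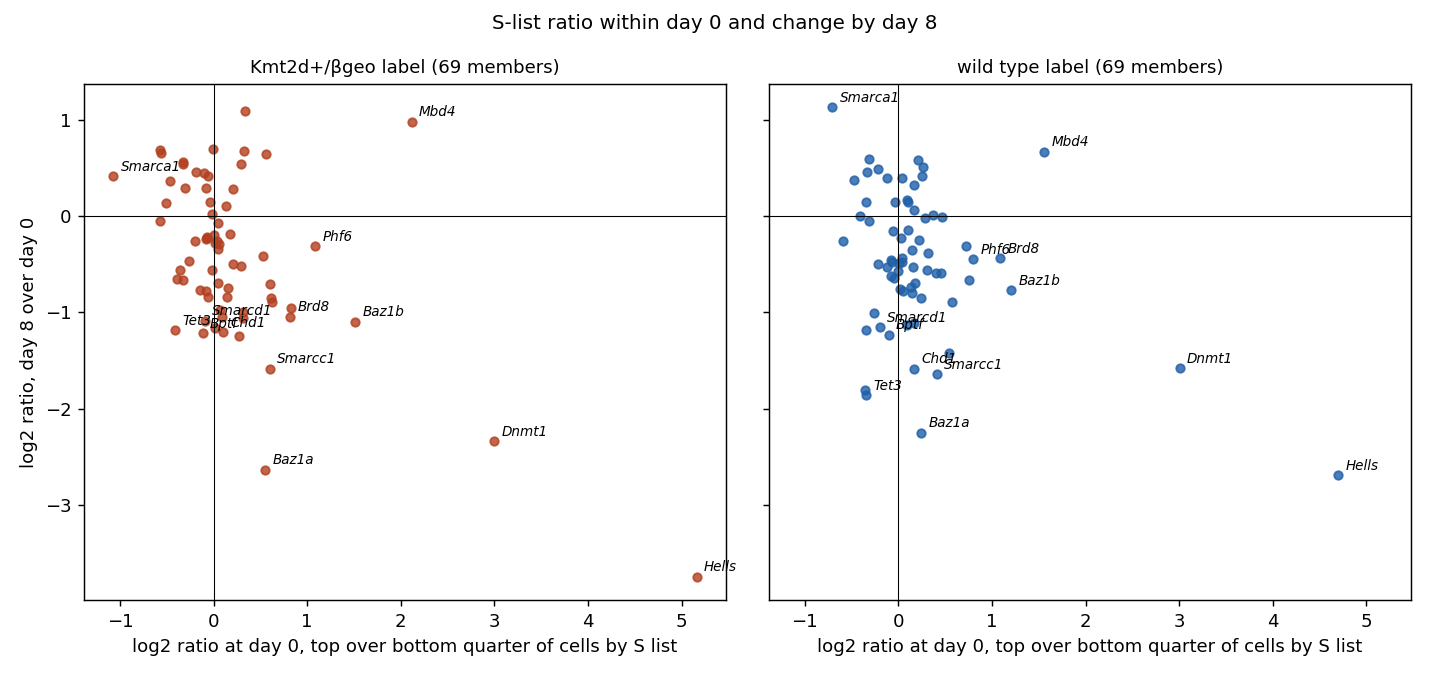
Log2 ratio of the top over the bottom 25% of day 0 cells by the S phase list (horizontal) against log2 ratio of day 8 over day 0 (vertical) for the 69 compared members, 1 panel per genotype label and 1 point per gene. Hells and Dnmt1 lie at the lower right with S phase ratios of 5.16 and 3.0 (left panel) and 4.70 and 3.01 (right panel), Baz1a is low at S phase ratios of 0.55 and 0.25, and Mbd4 is at the upper right.

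The changes over time were then taken again from day 0 cells below the median of both cycle lists, 1769 cells (40.8%) under the Kmt2d+/βgeo label and 1836 (37.8%) under the wild type label, an alternative chosen after the data had been seen. In these cells Hells was at 0.0638 and 0.0391 and Dnmt1 at 0.328 and 0.249. The day 8 log2 ratios of Hells against them were -0.80 and 0.16, and those of Dnmt1 -0.79 and 0.01, so neither passed 2-fold. The later libraries were used whole, so the cells compared were not matched for the cell cycle. Hells and Dnmt1 follow the S phase list within day 0, so the choice of cells was bound to lower their day 0 levels. What part of their change goes with the cycle was not tested. Baz1a was at 0.467 and 0.536 in the chosen day 0 cells and had ratios of -2.47 and -2.23. By day 8, 6 of 67 compared members were at least 2-fold lower under both labels (Baz1a, Bptf, Chd1, Smarcc1, Smarcd1 and Tet3, background 6.63%) and 1 was higher (Mbd4, background 12.3%), at 0.0418 and 0.0431 in those day 0 cells and compared through day 8 only. Of the 9 genes that fell against all day 0 cells, the 3 below the threshold were thus Hells, Dnmt1 and Smarce1, of which Smarce1 kept ratios of -1.12 and -0.995. Day 2 had 3 lower (Baz1a, Chd1 and Smarca4, background 2.44%) and 0 higher (background 4.65%), with Smarca1 at 0.85 under each label and Arid5b at 0.91 and 1.02, near the threshold. Day 4 had 1 lower (Baz1a, background 3.77%) and 0 higher (background 8.77%), with Smarca1 at 1.14 and 0.95. Of the partner genes, Actl6a had day 8 ratios of -1.10 and -0.75 against these cells, Tdg of -0.90 and -1.59 and Zbtb4 of 1.2 and 0.97, so their calls under both labels were lost, while Dpf3 (-2.73 and -2.16), Hdac2 (-1.52 and -1.44) and Bicra (1.89 and 1.07) stayed past 2-fold.

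On day 8 the cells highest in the neuron list (the top 5%, 148 and 161 cells) were set against the rest of their library. At least 1.5-fold higher levels in both libraries were found for 19 of 64 members (background 10.8%) and lower levels for 0 (background 5.24%). Dnmt1 led, at 0.539 against 0.171 under the Kmt2d+/βgeo label and 0.927 against 0.216 under the wild type label. Chd7 was at 2.04 against 0.701 and 1.73 against 0.566, Smarcc1 at 1.91 against 0.769 and 2.45 against 0.787, Phf6, the gene of Börjeson-Forssman-Lehmann syndrome, at 0.771 against 0.299 and 0.702 against 0.251, and Mbd6 at 0.333 against 0.105 and 0.238 against 0.122. Several members that were lower on day 8 than on day 0 were thus higher in this small class. Low means there rest on few molecules. The partner gene Cecr2, at 0.349 in the Kmt2d+/βgeo class, had 12 UMIs, and the counting interval of its log2 ratio was 0.13 to 1.95. Mbd6, at 0.333, lies in the same range. With a minimum of 0.5 the count of members was 15 (background 10.2%), without Mbd6. The class is a range of a score and not a cell type, its lowest score lying next to the highest of the rest (28.4 and 28.3 under the Kmt2d+/βgeo label). Its cells were also shallower, with medians of 2505 against 4039 and 5622 against 7031 UMIs, and 8 members passed with every cell thinned to 3000 UMIs, against 5.96% of all genes. That setting changes both the depth and the cells kept, since cells under 3000 UMIs are left out, and the part of each in the lower count was not tested. Dnmt1, Phf6, Smarcc1 and Mbd6 were among the 8 and Chd7 was not.

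Between the genotype labels no member differed by 2-fold on any day. The counts were 0 of 68, 0 of 68, 0 of 67 and 0 of 68 on days 0, 2, 4 and 8, where 1.55%, 2.84%, 0.0% and 4.87% of all compared genes did. Most members were somewhat lower under the Kmt2d+/βgeo label early on, 54 of 68 on day 0 (79.4%, against 55.5% of all genes) and 55 of 68 on day 2 (80.9% against 50.4%), with medians of -0.10 and -0.09 where all genes had -0.04 and -0.00. On day 4 it was 12 of 67 (17.9% against 32.0%), with a median of 0.08 where all genes had 0.04, and on day 8 it was 38 of 68 (55.9% against 48.8%), with a median of -0.06 where all genes had 0.01. All 8 CHD genes were below 0 on days 0 and 2, while 2 were on day 4 and 4 on day 8. Of the 7 ISWI genes 6, 7, 0 and 7 were below 0 on days 0, 2, 4 and 8.

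On day 0 Chd7 was lowest relative to wild type, at 1.22 against 2.17, which from summed UMIs is a log2 ratio of -0.81 (-0.85 to -0.77). Hells was highest at 0.491 against 0.283, a log2 ratio of mean levels of 0.80. From summed UMIs its ratio was 0.67 (0.59 to 0.75). Dnmt1 was at 0.957 against 0.752 and the S phase list at 12.9 against 10.4 in the same libraries. In the top 25% of day 0 cells by the S phase list, Hells was at 1.45 and 0.909 and Dnmt1 at 2.26 and 1.94. In the bottom 25% Hells was at 0.0406 and 0.0351 and Dnmt1 at 0.284 and 0.241. In the day 0 cells below the median of both cycle lists Hells was at 0.0638 and 0.0391 and Dnmt1 at 0.328 and 0.249. What part of the difference between labels goes with the cycle was not tested. On day 2 Smarcd1 was at 0.775 against 1.44, or -0.90 from summed UMIs (-0.96 to -0.83). On day 4 it was again the lowest of 67 members, at 1.08 against 1.31 (log2 ratio of mean levels -0.28). On days 0 and 8 its levels were within 0.08 on the log2 scale. On day 8 the SWI/SNF core subunit Smarcb1 (0.665 against 1.3), Smarca1 (0.127 against 0.243), the fork-remodelling ATPase Smarcal1 (0.0684 against 0.116), Chd8, Smarca4 and Smarcd3 were at least 1.5-fold lower and Phf10 (0.914 against 0.590) at least 1.5-fold higher. These were 6 and 1 of 68 members, where 10.3% of all compared genes were lower and 7.51% higher by that measure, so the members did not exceed the background. Before day 8 Smarcb1 was between 1.43 and 1.64 in all 6 libraries, so its value of 0.665 stood apart in the shallow Kmt2d+/βgeo day 8 library. In that library the astrocyte markers summed to 107 against 239 in wild type day 8 and the progenitor markers to 107 against 144. Thinned to 3000 UMIs, Smarca1 was the member past 2-fold. Depth, cell makeup, culture and genotype cannot be told apart with 1 library a group.

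**Figure D4:**
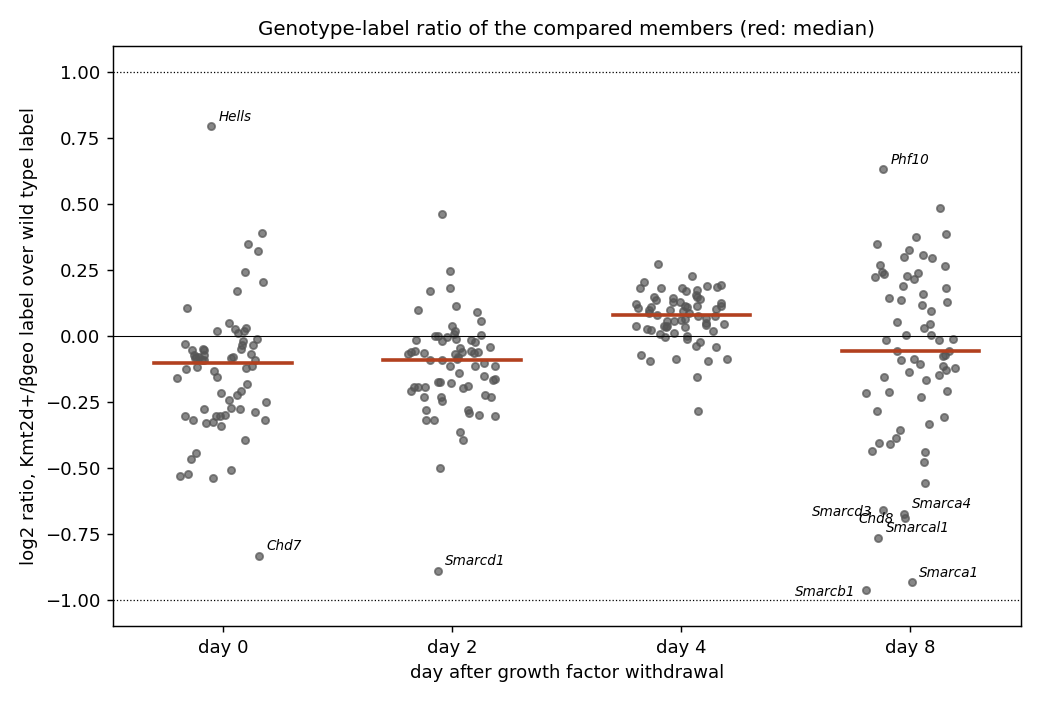
Log2 ratio of the Kmt2d+/βgeo over the wild type label for every compared member on each day (67 or 68 points a day, spread sideways for view), with red bars at the medians and dotted lines at 2-fold. All points lie between the dotted lines, the day 4 points are the tightest, and Smarcb1 and Smarca1 on day 8 lie nearest to 2-fold.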

How the data were processed

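Single-cell RNA was profiled in 8 libraries, 1 per genotype label and day. Per the submitters' processing notes, Salmon 1.3.0 (alevin) and Seurat 3.2.2 were used with GRCm38, and the study's methods state that spliced counts were taken as expression and that low-quality cells and doublet-score outliers were removed. The authors deposited log2 values per gene and cell, normalised by size factors, and a cell table with each cell's total UMIs as an estimated count. The log2 values were turned back to normalised counts by taking 2 to that power and subtracting 1. The commonest value of a cell was read as 1 UMI, and on that scale 86.8% of the values above 0 came within 0.01 of a whole number. These estimated counts were rounded for summed counts and for thinning to 3000 UMIs per cell, where shallower cells were left out.

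Samples were grouped by the labels. Means over cells gave log2 ratios for all genes with a mean of at least 0.1 in either library, without a test. Counting intervals on summed UMIs were exact conditional intervals at 95%. Calls were made at 2-fold between libraries and 1.5-fold between cells of 1 library, and the script was tested on simulated data. Alternatives were the minimum (0.02 and 0.5), the threshold, pooled UMIs, mean log2 values, centring, thinning and other shares of cells. The members and gene lists were chosen with earlier results of these data known. Named genes were a fixed list, members past 2-fold, the 5 leading members of each cell split, and fixed partner genes. Other named genes, among them Arid5b, Phf19, Chd9, Smarcb1 and Mbd2, were chosen after their values were seen. Some genes are not reported here. Promoter windows came from RefSeq on GRCm38.p6. Python 3.11.15, NumPy 2.4.6, SciPy 1.17.1, pandas 2.3.3 and matplotlib 3.10.9 were used.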

Additional observations from a re-analysis of the deposited data

Results flagged for a closer look

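Several members moved one way under one label or day and the opposite way under the other, by at least 1.25-fold each way, and these differences were not tested since each value rests on 1 library per group. Chd7 had a log2 ratio of day 4 over day 0 of 0.48 under the Kmt2d+/βgeo label and of -0.54 under the wild type label. Its day 0 levels were 1.22 and 2.17, and the 2 day 4 libraries, whose labels are in doubt, were alike at 1.70 and 1.49. Dnmt1 had a log2 ratio of the Kmt2d+/βgeo over the wild type label of 0.35 on day 0 and of -0.41 on day 8. Dnmt3a had a ratio of -0.53 on day 0 and of 0.39 on day 8.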

How the results depend on the processing

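Counts of members were recomputed under the alternatives that apply to each, given here with the share of all genes called the same way. Within a day no paired analysis was possible, because each group of 1 label and day has 1 library, and the results come from no test. The labels could be paired by day over the 4 days, but that was not done. A fit of label with day as a block, which asks for 1 effect shared by all days, was not run, and no library could be left out within a group. Between labels, 1.5-fold gave 2, 1 and 7 members on days 0, 2 and 8 (6.46%, 8.08% and 17.8% of all genes), and thinning gave 1 on day 8 (5.18%). The day 4 count stayed at 0 in the alternatives run. For day 2, members higher numbered 0 by mean log2 values (0.397%), 1 with a minimum of 0.5 (6.46%), 4 with a minimum of 0.02 (7.80%), 1 when centred on the median of all genes (6.15%) and 0 against day 0 cells low in both cycle lists (4.65%). Members lower on day 2 numbered 0 by mean log2 values (0.301%), 10 at 1.5-fold (11.9%) and 3 against low-cycle cells (2.44%). For day 4, members higher numbered 0 by mean log2 values (0.742%), 0 with a minimum of 0.5 (9.90%), 2 at 1.5-fold (20.1%) and 0 against low-cycle cells (8.77%). Members lower on day 4 numbered 0 by mean log2 values (0.689%), 6 at 1.5-fold (10.7%) and 1 against low-cycle cells (3.77%). With both day 4 libraries over wild type day 0 the counts were 1 higher (11.4%) and 4 lower (5.74%). For day 8, members higher numbered 2 at 1.5-fold (23.1%) and 1 against low-cycle cells (12.3%). Members lower on day 8 numbered 21 at 1.5-fold (17.1%) and 1 by mean log2 values (1.33%), which is near the background, so the excess of members that fell was not seen on that scale. Mean log2 values shrink ratios of genes seen in few cells by construction. For the cell splits, 2-fold gave 4 members each for the S phase, G2/M and neuron lists (3.62%, 3.77% and 3.79%), a minimum of 0.5 gave 5 for the S phase list (8.84%), and the neuron list gave 9 with the top 10% (5.54%) and 8 when thinned (5.96%). The low-cycle cells and the day 4 alternative were chosen after seeing the data. Depth limits the low genes most: Hells rested on 56 and 113 UMIs on day 8.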

Other observations

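Among partner genes not described above, Ruvbl2, an ATPase shared by the INO80 and EP400 complexes, was at 0.716 and 0.513 normalised counts on day 0 and fell by day 2 to 0.334 and 0.256. Against day 0 cells below the median of both cycle lists its day 2 log2 ratios were -0.78 and -0.54. On day 8 it stood at 0.163 under the Kmt2d+/βgeo label and at 0.303 under the wild type label, 2-fold below day 0 under the former alone. Within day 0 it was higher in S-high than in S-low cells, with log2 ratios of 0.79 and 0.96. Zbtb4, which rose with time, was lower in S-high cells, at -1.66 and -1.09. Hdac1, the paralog of Hdac2, was at 1.23 and 0.979 on day 0 and at 0.417 and 0.677 on day 8. These genes were singled out after their values were seen, apart from the rule that named Zbtb4.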
